A study of Mus musculus with 6 samples.

Results

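The 10 genes described here encode GTPases that cells switch on mainly in response to interferon gamma. They comprise 7 guanylate-binding proteins (Gbp2, Gbp3, Gbp4, Gbp5, Gbp6, Gbp7 and Gbp9) and 3 immunity-related GTPases (Irgm1, Irgm2 and Igtp). They were taken by symbol from a bulk RNA-seq table of 49671 mouse genes, and all 10 were found and passed the filter on low counts that left 12242 genes for testing. Their levels were compared between CD8 T cells labelled CD73 KO and WT, and with the level of Ifng, the gene of interferon gamma itself. The gene of CD73, an enzyme on the cell surface that makes adenosine from AMP, is Nt5e.

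The samples were 6 libraries, 3 labelled OTI CD73 KO and 3 labelled OTI WT. All carried the OT-I receptor, a transgenic T cell receptor for the ovalbumin peptide SIINFEKL, and were started from splenic CD8 T cells. Every culture, the controls included, received the peptide at 10 ng/mL daily for 5 days together with IL-7 and IL-15 at 5 ng/mL each and was replated at 48 h, a regime meant to bring about exhaustion in vitro, and live cells were sorted for RNA. No interferon is named among the additions. The labels give neither how the CD73 KO allele was made nor the age of the mice, and they leave unsaid if each library had its own mouse or culture. The p-values of the genotype comparison therefore set the difference only against the spread among these libraries within a genotype. That spread may be technical.

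Guanylate-binding proteins are large GTPases that assemble into coats on the vacuoles of intracellular microbes and on bacteria, and help to set off inflammasomes. Immunity-related GTPases work on the same vacuoles. Those of the Irgm type, to which Irgm1, Irgm2 and Igtp (also called Irgm3) belong, sit on the cell's own membranes and hold the effector GTPases of the family in the inactive state. Activated T cells secrete interferon gamma themselves, and Irgm1 is known to protect CD4 T cells from dying after exposure to this cytokine.

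Totals ran from 6934150 to 19382950 counts per library, and single members had 92 to 3463 counts. Nt5e stood at 3.67, 8.44 and 8.46 CPM (counts divided by a TMM-adjusted library size) in CD73 KO and at 22.5, 5.21 and 37.4 CPM in WT, a log2 fold change of -1.67 ± 0.72 (SE) with an edgeR adjusted p = 0.534. The library labelled WT replicate 2 therefore lay within the CD73 KO range for the targeted gene, and results are also given without it. Markers of T cells summed to 4166 to 4577 CPM in CD73 KO and 3811 to 4558 CPM in WT. Of 8 myeloid markers, Lyz2, Csf1r, C1qa and Spi1 had 0 counts in every library, yet the list summed to 81.5 to 102.5 CPM in CD73 KO and 54.8 to 71.9 CPM in WT, most of it Ctss. The 5 stromal or endothelial markers, 3 of them at 0 counts, summed to 66.8 to 104 and 46.5 to 63.3 CPM, most of it Pecam1. The 8 B cell markers, of which Ms4a1 and Pax5 were at 0 counts, summed to 805 to 895 and 729 to 792 CPM, most of it Ighm. These 3 sums were higher in every CD73 KO library, as 6 of the GTPases were, and their part in the differences below was not tested.

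Promoters of interferon targets are known for GAS elements and for ISRE elements, the latter bound by IRF factors. RefSeq promoter sequences (GRCm38.p6) were at hand for 7 members and not used here for Gbp4, Gbp6 and Gbp9. The 250 bases before each start of transcription were searched on both strands for an ISRE core, spelled GAAANNGAAA, and a GAS, spelled TTCNNNGAA, where N is any base. The 7 members have 8 promoters in the table. All 7 had an ISRE core match in a promoter, as 3.46% of the 27025 genes in the table did (2.98% of 32851 promoters), and the second promoter of Gbp3 had neither motif. Gbp5, Gbp7, Igtp and Irgm2 also had a GAS match, as 8.13% of genes did (7.02% of promoters), and 0.332% of promoters had both. The stretches around the ISRE core nearest to the start are shown 5′ to 3′ on the gene's strand, to let the motif and its neighbourhood be compared between members, with the letters of both motifs in capitals.
Gbp2: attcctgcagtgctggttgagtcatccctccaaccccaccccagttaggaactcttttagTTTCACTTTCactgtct
Gbp3: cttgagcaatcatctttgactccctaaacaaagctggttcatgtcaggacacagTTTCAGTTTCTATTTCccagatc
Gbp5: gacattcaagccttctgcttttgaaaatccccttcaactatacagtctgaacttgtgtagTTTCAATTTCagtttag
Gbp7: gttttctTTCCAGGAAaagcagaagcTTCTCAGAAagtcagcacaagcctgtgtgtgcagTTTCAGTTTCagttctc
Irgm1: gtttcaaGAAATAGAAACCGAAActgattc
Irgm2: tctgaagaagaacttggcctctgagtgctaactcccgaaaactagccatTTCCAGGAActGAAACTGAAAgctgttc
Igtp: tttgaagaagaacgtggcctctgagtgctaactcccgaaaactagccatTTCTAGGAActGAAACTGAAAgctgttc

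The 4 guanylate-binding protein stretches lie on the plus strand at chr3:142620544-142620620 (Gbp2), chr3:142559945-142560021 (Gbp3), chr3:142496709-142496785 (Gbp5) and chr3:142530223-142530299 (Gbp7). In these 4 the ISRE core is on the opposite strand and is printed as its reverse complement. The Irgm1 stretch, at chr11:48871428-48871457 on the minus strand, holds 2 overlapping ISRE cores, as does that of Gbp3. Igtp (chr11:58199462-58199538) and Irgm2 (chr11:58214853-58214929), both on the plus strand, have a GAS just before the ISRE core, and 197 of the 214 aligned bases of their upstream sequences were identical (92.1%). By GENCODE M21 the Gbp3, Gbp7 and Igtp stretches lie outside transcripts, and those of Gbp5 and Irgm2 lie within an intron of a longer transcript of the same gene. The last 19 bases of the Gbp2 stretch and all 30 of the Irgm1 stretch lie in an exon of a longer transcript of that gene. The 2 GAS matches of Gbp5 fall outside the stretch shown. A match is a description of letters and does not show that a factor binds there.

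**Figure D1:**
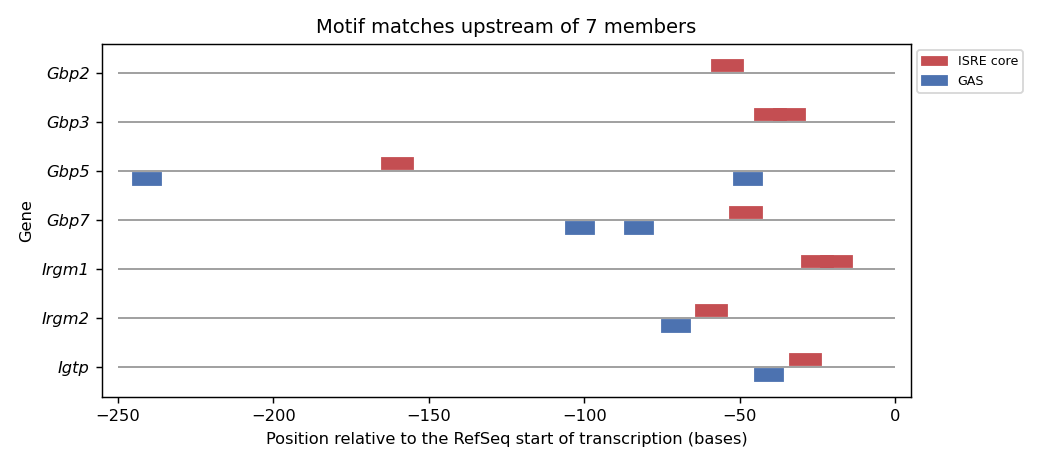
Positions of ISRE core (red) and GAS (blue) matches in the 250 bases upstream of the RefSeq start of transcription of the 7 members with a promoter entry. The x axis is the position in bases relative to the start, each line is 1 gene, and in 6 of the 7 an ISRE core lies between 64 and 15 bases before the start, while that of Gbp5 lies 165 to 156 bases before it.

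Between genotypes, 0 of the 10 members passed edgeR's quasi-likelihood test at a Benjamini-Hochberg adjusted p below 0.05, a threshold that 0.0572% of all tested genes passed (7 genes, 5 higher and 2 lower in CD73 KO). All 10 had a log2 fold change above 0, with a median of 0.45, where the median over all tested genes was 0.01. At an unadjusted p below 0.05, 6 of the 10 were higher in CD73 KO, against 5.75% of all tested genes, and this count was 4 without the library labelled WT replicate 2, where the background was 2.96%. In 6 of the 10, every CD73 KO library stood above every WT library, which held for 7.59% of all tested genes. When the libraries were thinned to the smallest total, 6 members were below an unadjusted p of 0.05 (background 5.14%) and 4 did not overlap, with every CD73 KO library above every WT library (background 7.19%). The members and the lists below were chosen with earlier results of these data known, so counts over them are descriptions. The adjusted p printed for single genes below is from this edgeR test over 12242 genes. In bulk RNA, fewer cells expressing a gene and less RNA per cell cannot be told apart.

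**Figure D2:**
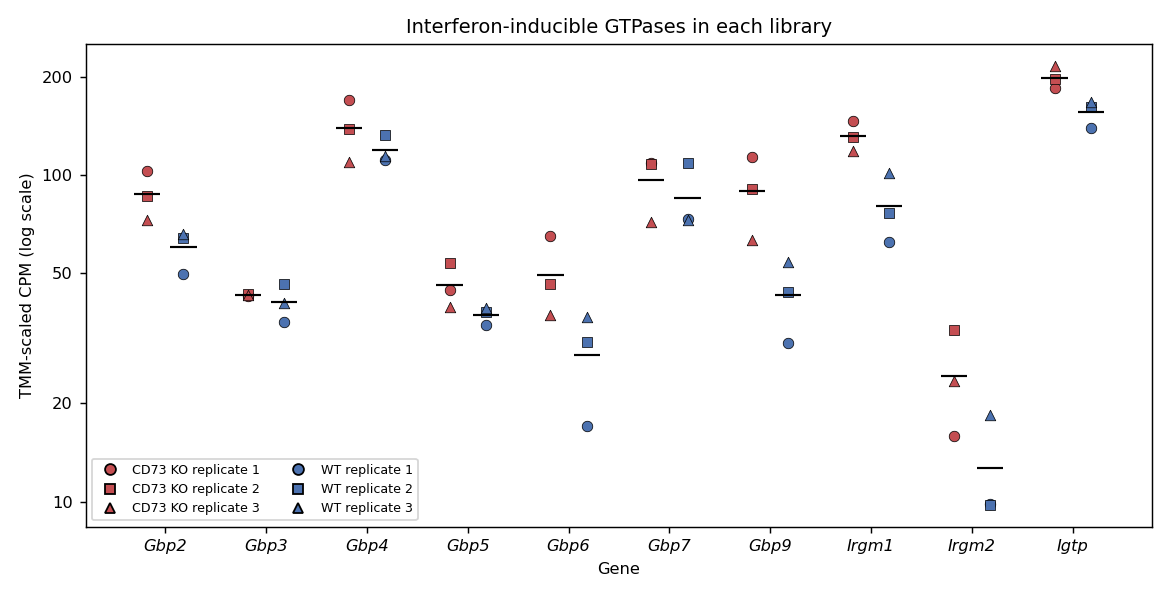
TMM-scaled CPM on a log axis of each of the 10 GTPase genes in the 3 CD73 KO (red) and 3 WT (blue) libraries, with the replicate shown by the symbol and the group mean by a bar. Gbp9 runs from 63.4 to 113.8 CPM in CD73 KO and from 30.6 to 54.0 CPM in WT, while Gbp3 and Gbp7 overlap.

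On chromosome 3, Gbp2, Gbp3, Gbp5 and Gbp7 lie within a single cluster. Gbp2 (ENSMUSG00000028270, chromosome 3, 142620602 to 142638008, plus strand) encodes a lipid-anchored member that coats vacuoles of Toxoplasma and bacteria. It stood at 103, 86.5 and 72.6 CPM in CD73 KO and at 49.6, 64.2 and 66.1 CPM in WT. The groups did not overlap, with means of 87.4 ± 15.3 and 59.99 ± 9.03 CPM (SD, n = 3), and the log2 fold change was 0.55 ± 0.16 (SE), short of the adjusted threshold (unadjusted p = 0.00495, edgeR adjusted p = 0.346). Without the library labelled WT replicate 2 it was 0.60.

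Gbp5 (ENSMUSG00000105504, chromosome 3, 142493978 to 142522344, plus strand) encodes a member known for promoting the NLRP3 inflammasome. Its levels were 44.5, 53.9 and 39.5 CPM in CD73 KO and 34.7, 38.1 and 39.2 CPM in WT. The lowest CD73 KO library and the highest WT library were nearly level, and the log2 fold change was 0.30 ± 0.14 (edgeR adjusted p = 0.520), or 0.17 without CD73 KO replicate 2.

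Gbp3 (ENSMUSG00000028268, chromosome 3, 142560026 to 142573209, plus strand) was the most even of the 10 genes. It stood at 42.8, 43.2 and 43.0 CPM in CD73 KO and at 35.6, 46.5 and 40.5 CPM in WT. All CD73 KO values fell inside the WT range, the log2 fold change was 0.07 ± 0.13 (edgeR adjusted p = 0.873), and it turned to -0.02 without WT replicate 1.

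Gbp7 (ENSMUSG00000040253, chromosome 3, 142530342 to 142550149, plus strand) encodes a member that helps to assemble the phagocyte oxidase and autophagy machinery on vacuoles. It stood at 109, 108 and 71.6 CPM in CD73 KO and at 73.2, 108.6 and 72.9 CPM in WT. The high libraries were CD73 KO replicates 1 and 2 and the library labelled WT replicate 2, so the groups overlapped fully, and the log2 fold change was 0.19 ± 0.20 (edgeR adjusted p = 0.792). Leaving out 1 library gave 0.08 to 0.40, the lowest without CD73 KO replicate 1 and the highest without the library labelled WT replicate 2. The model Gm43802 overlaps 11.3% of the Gbp7 exon length and had 0 counts in every library.

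On chromosome 5, Gbp4, Gbp6 and Gbp9 belong to a second cluster. Gbp9 (ENSMUSG00000029298, chromosome 5, 105077630 to 105139539, minus strand) had the highest fold change of the 10 members. It stood at 113.8, 90.5 and 63.4 CPM in CD73 KO and at 30.6, 43.7 and 54.0 CPM in WT. The groups did not overlap, with means of 89.2 ± 25.3 and 42.8 ± 11.7 CPM (SD, n = 3), and the log2 fold change was 1.07 ± 0.25 (unadjusted p = 0.00263, edgeR adjusted p = 0.303). It was 1.09 without the library labelled WT replicate 2. Gbp9 passed DESeq2 (adjusted p = 0.00149), as 0.81% of the genes given an adjusted p there did. It also passed edgeR when low counts were not filtered (adjusted p = 2.94e-10), as 1.4% of the genes tested that way did. That share includes genes that fail the filter. Of the 12242 genes of the main fit, 212 were called higher and 61 lower that way. The Gbp9 counts were the same in both fits, so the smaller adjusted p comes from the fit and not from other counts of Gbp9. In 15 of the 17 alternative fits Gbp9 did not pass.

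Gbp6 (ENSMUSG00000104713, chromosome 5, 105270702 to 105293698, minus strand) stood at 64.9, 46.3 and 37.3 CPM in CD73 KO and at 17.1, 30.7 and 36.8 CPM in WT. CD73 KO replicate 3 and WT replicate 3 were nearly level, and the widest gap was between the libraries numbered 1. The log2 fold change was 0.83 ± 0.30 (unadjusted p = 0.0252, edgeR adjusted p = 0.472). Gbp6 is uncertain as a single gene, since 70.7% of its 50-base stretches occur in other transcripts, chiefly those of Gm43302 and Gbp10. Gm43302 had 1 count in all. The sum of Gbp6 and Gbp10 was 76.6, 57.8 and 43.7 CPM in CD73 KO and 19.1, 35.0 and 41.2 CPM in WT. Neither gene overlapped between the groups by itself, so their sum could not overlap either. Reads left uncounted would be missing from the sum.

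Gbp4 (ENSMUSG00000079363, chromosome 5, 105115767 to 105139586, minus strand) stood at 169.9, 138.7 and 109.9 CPM in CD73 KO and at 111, 132.6 and 114 CPM in WT. The groups overlapped, and the log2 fold change was 0.23 ± 0.15 (edgeR adjusted p = 0.653), or 0.05 without CD73 KO replicate 1. With CD73 KO replicate 3 left out instead it was 0.37. Gbp4 and Gbp9 are neighbours whose transcripts share under 10% of their 50-base stretches with other genes (7.70% and 8.05%), and yet they differed in pattern. The ratio of Gbp9 to Gbp4 CPM was 0.670, 0.653 and 0.577 in CD73 KO and 0.276, 0.330 and 0.474 in WT, without overlap between the groups. The ratio of Gbp2 to Gbp3 was 2.41, 2.00 and 1.69 in CD73 KO and 1.40, 1.38 and 1.63 in WT, also without overlap. The ratio of Irgm2 to Igtp, neighbours on chromosome 11, was 0.0866, 0.171 and 0.108 in CD73 KO and 0.0709, 0.0605 and 0.111 in WT, and there the groups overlapped. These 3 pairs were picked with the fold changes known. The ratios were not tested, since 3 against 3 libraries cannot go below an exact two-sided p of 0.1.

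Among the regulatory GTPases, Irgm1 (ENSMUSG00000046879, chromosome 11, 48861968 to 48871683, minus strand) had the smallest p of the 10 members. It stood at 146, 131 and 118 CPM in CD73 KO and at 62.3, 76.4 and 101.7 CPM in WT. The groups did not overlap, with means of 131.9 ± 13.97 and 80.1 ± 19.95 CPM (SD, n = 3), and the log2 fold change was 0.73 ± 0.17 (unadjusted p = 0.00140, edgeR adjusted p = 0.271). It was 0.69 without the library labelled WT replicate 2. Irgm1 passed DESeq2 (adjusted p = 0.0119) and edgeR with low counts unfiltered (adjusted p = 1.12e-05), as 0.81% and 1.4% of genes did. In 15 of the 17 alternative fits it did not pass. Only 0.310% of its 50-base stretches occur elsewhere.

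Igtp (ENSMUSG00000078853, chromosome 11, 58199556 to 58207591, plus strand) encodes the member found on the endoplasmic reticulum and lipid droplets. It stood at 184, 196 and 215.6 CPM in CD73 KO and at 139, 161.8 and 167 CPM in WT. Here CD73 KO replicate 3 was the highest library, unlike in the other members without overlap. The means were 198.6 ± 15.97 and 156 ± 14.8 CPM (SD, n = 3), and the log2 fold change was 0.35 ± 0.11 (unadjusted p = 0.0108, edgeR adjusted p = 0.387).

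Irgm2 (ENSMUSG00000069874, chromosome 11, 58199618 to 58222782, plus strand) encodes a Golgi-bound member that restrains the noncanonical inflammasome. It stood at 15.9, 33.6 and 23.4 CPM in CD73 KO and at 9.86, 9.79 and 18.5 CPM in WT. CD73 KO replicate 1 lay below WT replicate 3, so the groups overlapped. The log2 fold change was 0.96 ± 0.33 (unadjusted p = 0.0176, edgeR adjusted p = 0.431). Igtp and Irgm2 share exon sequence (162 bases, 8.01% of the Igtp and 4.39% of the Irgm2 exon length). Whether reads there were given to either gene or left uncounted is not known. The sum of Igtp and Irgm2, which would not hold uncounted reads, was 200, 230 and 239 CPM in CD73 KO and 149, 172 and 186 CPM in WT, without overlap.

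The libraries also differed within a genotype. The 10 members summed to 994, 928 and 795 CPM in CD73 KO and to 563, 712 and 711 CPM in WT. CD73 KO replicate 1 was the highest library for 6 members, and WT replicate 1 was the lowest for 7. Without WT replicate 1, the median log2 fold change of the 10 was 0.35 and 4 were below an unadjusted p of 0.05 (background 3.9%), and leaving out any single library gave medians between 0.35 and 0.53. Gbp2, Gbp9, Gbp6 and Irgm1 followed the other 9 members most closely over the 6 libraries, with Pearson r of 0.96, 0.96, 0.94 and 0.91, and Gbp7 and Gbp3 least, with 0.58 and 0.60. These r describe 6 libraries that share the genotype difference.

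Scaled to exon length, levels can be compared roughly between genes. The length includes stretches shared with other gene models, 29.0% of it for Gbp6, 11.3% for Gbp7 and 8.01% for Igtp. Whether reads there were counted is not known, so the place of Gbp6 in the order is uncertain. In RPKM (CPM divided by the joint exon length of GENCODE M21 in kilobases), Igtp was highest in WT at 77.2 ± 7.33 (SD, n = 3), followed by Gbp2 at 23.8 ± 3.59. Gbp4, Gbp7, Irgm1 and Gbp3 then ran from 15.9 ± 1.56 to 12.5 ± 1.67 RPKM, and each overlapped its neighbour in that order. Gbp9 at 8.27 ± 2.27 RPKM did not overlap its neighbours in the order, Gbp3 and Gbp5. Its lowest WT library, at 5.915 RPKM, was nearly level with the highest of Gbp5, at 5.913 RPKM. Gbp5, Gbp6 and Irgm2 followed at 5.63 ± 0.354, 4.74 ± 1.70 and 3.44 ± 1.35 RPKM and overlapped in turn.

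In CD73 KO, Igtp at 98.2 ± 7.90 RPKM and Gbp2 at 34.7 ± 6.07 RPKM again led. Irgm1 came at rank 3 with 22.7 ± 2.41 RPKM and Gbp9 at rank 5 with 17.3 ± 4.89 RPKM, against ranks 5 and 7 in WT, but both overlapped Gbp4 in CD73 KO. The mean of Irgm2 was lowest in both groups, at 6.59 ± 2.41 RPKM in CD73 KO. Its CD73 KO range overlapped that of Gbp5, its neighbour in the order, and in CD73 KO replicates 2 and 3 Irgm2 stood above both Gbp5 and Gbp6, so its place at the bottom there holds for the mean alone.

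Ifng itself lay on the other side. It stood at 50.2, 50.9 and 47.7 CPM in CD73 KO and at 61.2, 75.2 and 55.9 CPM in WT, the highest value being that of the library labelled WT replicate 2. Every CD73 KO library was below every WT library, which held for 7.6% of all tested genes, with means of 49.6 ± 1.68 and 64.1 ± 9.98 CPM (SD, n = 3). Its log2 fold change was -0.37 ± 0.13, short of the adjusted threshold (unadjusted p = 0.0155, edgeR adjusted p = 0.415), and it was -0.25 without the library labelled WT replicate 2. Reads of the model Gm49751, which overlaps 25.9% of the Ifng exon length, could not be separated.

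Across the 6 libraries, 8 of the 10 members had a Pearson r below 0 with Ifng on the log2(CPM + 1) scale, where 50.6% of all tested genes had. The median r was -0.57 for the members and -0.01 over all tested genes. By exact permutation over the 720 orders of the libraries, two-sided and adjusted over 12241 genes, 0 members passed and 0 of all tested genes (0%) did, the smallest adjusted p in this family being 0.405. At an unadjusted exact permutation p below 0.05, 0 of the 10 members passed by Pearson r, against 9.51% of all tested genes.

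The lowest Pearson r was that of Irgm1, -0.78 (exact permutation p = 0.0611, adjusted p = 0.526), with a Spearman rho of -0.77 (exact permutation p = 0.103, adjusted p = 0.628). Igtp had r = -0.72 (exact permutation p = 0.1, adjusted p = 0.584) and rho = -0.89 (exact permutation p = 0.0333, adjusted p = 0.600). Gbp7 and Gbp3 had r above 0, at 0.19 and 0.09 (exact permutation p = 0.725 and 0.867). The libraries farthest from the median Ifng level were WT replicate 1 and the library labelled WT replicate 2. Leaving them out kept the CD73 KO libraries and WT replicate 3. Over these 4 libraries r was -0.93 for Igtp, -0.58 for Irgm1, -0.39 for Gbp2 and Gbp9 and -0.89 for Gbp3. For Irgm2, Gbp6, Gbp5 and Gbp4 it was -0.24, -0.23, -0.13 and -0.13, against -0.78, -0.55, -0.51 and -0.11 over all 6 libraries. Gbp3 therefore rests on the libraries left out for its sign, and so did Gbp7, whose r went to -0.16. Since the genotypes do not overlap in Ifng, r mixes the difference between genotypes with that between libraries, and groups of 3 are too small for a value within a genotype. With the Ifng level as a covariate, all 10 members had a log2 fold change above 0, and 2 were below an unadjusted p of 0.05, against 1.39% of all tested genes. Irgm2 went from 0.96 to 0.43 and Gbp7 from 0.19 to 0.81. With no overlap in Ifng between genotypes, this fit cannot separate the Ifng level from genotype, and no conclusion is drawn from it.

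**Figure D3:**
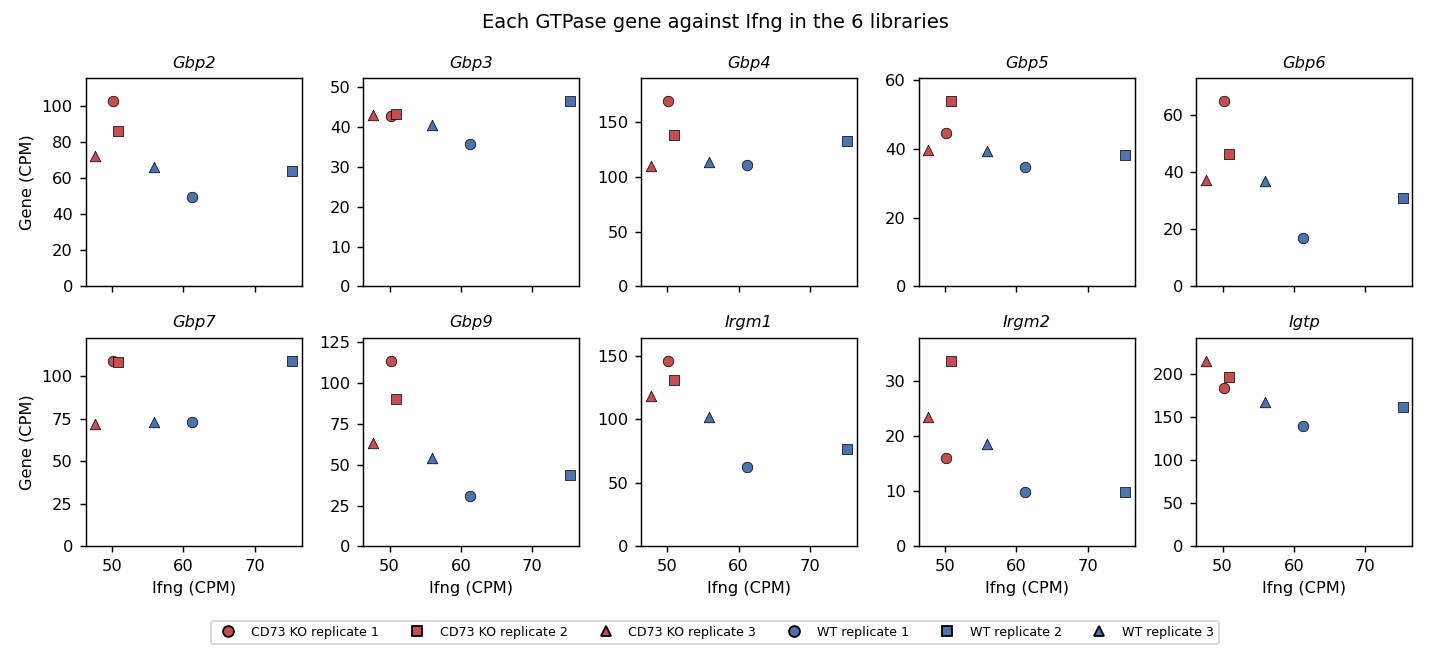
CPM of each GTPase gene (y axis, linear from 0) against CPM of Ifng (x axis, linear) in the 6 libraries, CD73 KO in red and WT in blue, with the replicate shown by the symbol. The CD73 KO libraries sit at 47.7 to 50.9 CPM of Ifng and the WT libraries at 55.9 to 75.2 CPM, with no overlap on the x axis.

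Other GTPases of these and related families lay on the same side as the members. Of 19 listed genes, 13 were tested, all with a log2 fold change above 0 and a median of 0.79, and 0 passed the test. By unadjusted p below 0.05, 9 were higher (5.75% of all tested genes), and in 8 every CD73 KO library was above every WT library (7.59% of all tested genes). Tgtp1 and Tgtp2, near-identical effector GTPases of the immunity-related family, had log2 fold changes of 1.07 ± 0.19 and 0.79 ± 0.16 (edgeR adjusted p = 0.138 and 0.203). Ifi47, another member of the immunity-related family, had 0.57 ± 0.10 (edgeR adjusted p = 0.138), with 148.9 to 166.2 CPM in CD73 KO and 102.1 to 114.6 CPM in WT. Iigp1, an effector that Irgm proteins hold in check, had the highest fold change of the list and was picked after its values were seen. It stood at 7.44, 21.8 and 13.8 CPM in CD73 KO and at 1.24, 2.02 and 4.41 CPM in WT, a log2 fold change of 2.57 ± 0.53 (edgeR adjusted p = 0.271). Irgq, a divergent relative, had 0.02 ± 0.15 (edgeR adjusted p = 0.977, also picked after its values were seen), and Gbp2b had 0 counts in all 6 libraries.

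**Figure D4:**
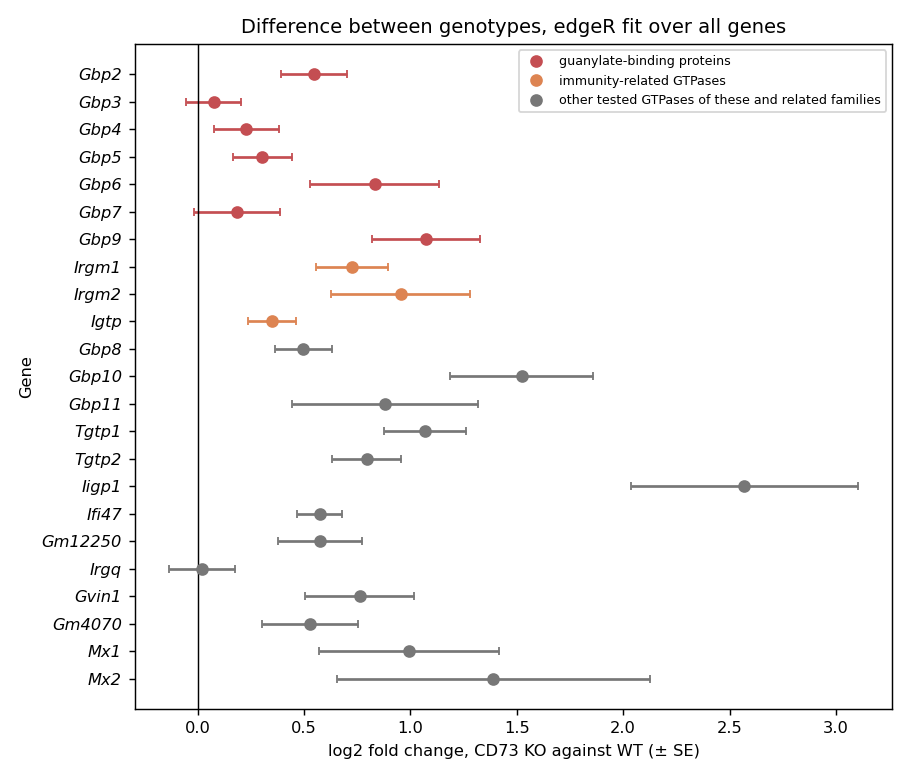
Log2 fold change of CD73 KO against WT with its standard error (bars) for the 7 guanylate-binding proteins (red), the 3 immunity-related GTPases (orange) and 13 other tested GTPases (grey). All 23 points lie above 0, Irgq, Gbp3, Gbp7 and Gbp4 closest to it, and 0 of them passed the adjusted threshold.

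The genes that lead from the cytokine to these targets lay on both sides of 0. Of 12 genes of the interferon gamma ligand, receptor and signalling, 10 had a log2 fold change above 0, 0 passed the test, and the median was 0.22. The receptor chains Ifngr1 and Ifngr2 stood at 0.04 ± 0.20 and 0.16 ± 0.35 (edgeR adjusted p = 0.963 and 0.904), both picked after their values were seen. Usp18, a brake on the type I interferon receptor, had 1.73 ± 0.49 and Pias1, a SUMO ligase, 0.41 ± 0.12 (edgeR adjusted p = 0.370 and 0.346). Of 10 transcription factors, 8 were tested, 7 had values above 0, 0 passed, and the median was 0.57. Irf9, the DNA-binding part of the complex that answers type I interferon, had 0.71 ± 0.14, Irf7 1.30 ± 0.31 and Nlrc5, which drives class I antigen presentation genes, 0.43 ± 0.12 (edgeR adjusted p = 0.187, 0.328 and 0.326). Irf1, which interferon gamma induces, was uneven, at 332.5, 100.9 and 139.7 CPM in CD73 KO and 116, 106 and 105.5 CPM in WT, and was picked after its values were seen. CD73 KO replicate 1 stood far above the others for it, and CD73 KO replicate 2 lay below all WT libraries.

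Other targets induced mainly by interferon gamma had a lower median than the GTPases. Of 26 listed, 17 were tested, 15 had a log2 fold change above 0, 0 passed, and the median was 0.19. Tap1 and Tapbp, of the peptide loading machinery, had 0.29 ± 0.10 and 0.33 ± 0.13, and Cd274, which encodes PD-L1, had 0.43 ± 0.17 (edgeR adjusted p = 0.411, 0.496 and 0.492). Of 35 targets induced mainly by type I interferon, 34 were tested, all above 0 with a median of 1.01, and 0 passed. By unadjusted p below 0.05, 31 of these were higher (5.75% of all tested genes). The count was 20 without CD73 KO replicate 1 (background 5.19%) and 17 with Ifng as a covariate (background 1.39%), a fit that cannot separate Ifng from genotype. Uba7, which activates the ubiquitin-like ISG15, had 0.87 ± 0.13 (edgeR adjusted p = 0.0583), and Oasl1 and Oasl2 had 1.98 ± 0.38 and 2.58 ± 0.50 (edgeR adjusted p = 0.168 and 0.187). These medians and counts are descriptions, since the lists were chosen with earlier results of these data known. The difference between the lists was not tested. Many targets answer to both interferons, so the lists do not separate the cytokines.

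Partners of the GTPases at vacuoles and in cell death had a median of 0.10 over 20 tested of 22 listed genes, with 15 above 0 and 0 that passed. Rnf213, a giant ubiquitin ligase, stood at 563.9, 580.8 and 330.2 CPM in CD73 KO and 172.7, 223.8 and 236.9 CPM in WT, a log2 fold change of 1.22 ± 0.22 (edgeR adjusted p = 0.186). Gsdmd, the pore-forming gasdermin D, and Trim21, a ubiquitin ligase and antibody receptor, had 0.42 ± 0.13 and 0.55 ± 0.17 (edgeR adjusted p = 0.374 and 0.367). The 5 prenylation enzymes, which attach the lipid anchor of some guanylate-binding proteins, had a median of -0.10, and 0 passed. Icmt, Rce1 and Fntb had -0.19 ± 0.11, -0.18 ± 0.14 and -0.10 ± 0.14 (edgeR adjusted p = 0.611, 0.708 and 0.844).

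**Figure D5:**
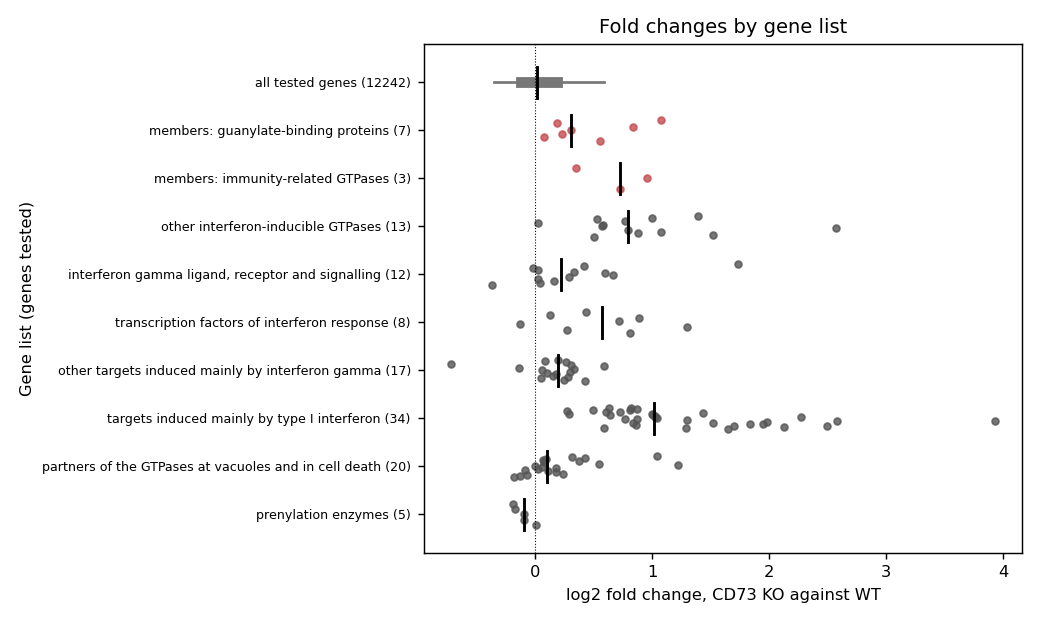
Log2 fold changes of CD73 KO against WT by gene list, each dot 1 tested gene and each vertical bar the list's median, with the 10 members in red. The row of all 12242 tested genes shows the 5th to 95th percentile (line) and the quartiles (box) around a median of 0.01, and the medians of the type I interferon targets (1.01) and of the other GTPases (0.79) lie furthest to the right.

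The genes outside the lists whose pattern over the 6 libraries was most like the members' mean were Phf11a, Trim12c, Mppe1, Tdrd7 and Dnajc9. Likeness was the Pearson r of log2(CPM + 1) with the mean of the members' standardised values, over 10547 genes. These r were 0.99, 0.98, 0.98, 0.98 and 0.98, and 1.02% of the genes had an r above 0.9. Such an r does not measure the size of a difference. In the same order, the log2 fold changes were 1.24, 0.79, 0.21, 0.55 and 0.15 (edgeR adjusted p = 0.394, 0.361, 0.577, 0.498 and 0.633). Phf11a stood at 13.5, 14.04 and 7.79 CPM in CD73 KO and at 2.25, 6.70 and 6.54 CPM in WT.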

How the data were processed

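RNA was measured in 3 CD73 KO and 3 WT libraries. The values the authors deposited are raw counts of reads per gene, keyed by Ensembl identifiers. Read trimming, alignment and counting tools are named in the submitters' processing notes as fastp, HISAT2 and featureCounts, with mm10 as the build. Not given in the sources used here are versions, strand setting and annotation, so reads of overlapping, antisense or near-identical genes cannot be told apart. Genes were kept with filterByExpr (minimum count 10, minimum total 15) and compared with the quasi-likelihood F-test of edgeR 4.0.16 (TMM factors, legacy fit, robust estimation, R 4.3.3), two-sided, with Benjamini-Hochberg adjustment over all 12242 tested genes at 0.05. The SE is the size of the log2 fold change divided by the square root of F. The fit was also run on simulated counts with the same dispersion for every gene. That setting need not hold for these data, and no conclusion is drawn from it. Levels are TMM-scaled CPM, and the floor of 3 counts was worth 0.159 to 0.427 CPM. Correlations used log2(CPM + 1) and exact permutation. Promoters came from RefSeq and gene models from GENCODE M21. Members sharing sequence were checked with transcript stretches of 50 bases. Alternatives used DESeq2 1.42.0 and limma 3.58.1 among others.

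Named genes were the 10 members, Ifng, the 3 genes of smallest p in each list and the 5 genes most like the members. Beyond this rule the text names Nt5e, the largest cell type markers, and genes picked after their values were seen (Iigp1, Irgq, Gbp2b, Gbp10, Ifngr1, Ifngr2, Irf1) or for overlapping a named gene. The members and lists were chosen with earlier results of these data known. The symbols Gvin2 and Rabgdia were not matched. For 1 signalling gene, counted in its list, no value is reported here.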

Additional observations from a re-analysis of the deposited data

How the results depend on the processing

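Of 170 log2 fold changes (10 members, 17 alternatives), 162 kept their direction and side of the threshold. Gbp3 turned to -0.022 without WT replicate 1 (-0.022 to 0.17 over the fits leaving out 1 library), and the other 7 were calls gained. With low counts unfiltered, edgeR called 298 of 21315 genes (1.4%) and 5 members (Gbp2, Gbp6, Gbp9, Irgm1 and Irgm2), with 6 other GTPases, 1 signalling gene, 4 transcription factors, 22 type I targets and 3 partners. Of the 12242 genes of the main fit, 212 were called higher and 61 lower there. DESeq2 called 99 of 12222 genes (0.81%) and 2 members (Gbp9 and Irgm1), with 5 other GTPases, 3 transcription factors, 11 type I targets and 1 partner. At equal depth 8 genes were called, 1 of them a type I target. The cause was not tested. With Ifng as covariate 1 gene was called and 2 members were higher at an unadjusted p below 0.05 (background 1.39%), against 7 and 6 (background 5.75%).

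Leaving out 1 library gave 4 to 8 called genes (4 without CD73 KO replicate 2 or the library labelled WT replicate 2) and 0 called members. In these fits 4 to 8 members were higher at an unadjusted p below 0.05, against 2.96% to 7.28% of tested genes. Called transcription factors numbered 0 to 1 (1 without WT replicate 3) and called partners 0 to 1 (1 without CD73 KO replicate 3). Pearson r with Ifng changed sign for Gbp4 (0.15 when thinned, 0.29 without CD73 KO replicate 1), Gbp7 (-0.05 without CD73 KO replicate 3, -0.40 without the library labelled WT replicate 2) and Gbp3 (-0.94 without the latter). Over the fits leaving out 1 library r ran from -0.40 to 0.29, -0.40 to 0.40 and -0.94 to 0.66 in turn. Deviations of same-numbered libraries from their genotype mean had r of 0.19, -0.18 and 0.05. With so few libraries these r cannot settle if replicate numbers pair them, and totals fell from replicate 1 to 3 in both genotypes. With the replicate block 5 genes and 0 members were called. At an unadjusted p below 0.05, 5 members and 19 type I targets (31 without the block) were then higher, against 5.89% of all tested genes (5.75% without the block).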
